A study of Homo sapiens with 6 samples.

Results

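The HOX genes encode homeodomain transcription factors that give cells their position along the head-to-tail axis and along the limbs. They lie in 4 clusters, HOXA to HOXD, and the peaks in those clusters were described here in U2OS, an established human osteosarcoma line. A peak was counted when its summit fell in 1 of 4 windows of the hg19 build: chromosome 7 from 27130000 to 27260000 (HOXA), 17 from 46600000 to 46810000 (HOXB), 12 from 54330000 to 54450000 (HOXC) and 2 from 176940000 to 177060000 (HOXD). The windows hold the starts of 38 HOX genes under study. After overlapping peaks of all libraries were merged, the windows held 115 of 248031 regions, 23 in HOXA, 44 in HOXB, 27 in HOXC and 21 in HOXD. Of these, 65 had a peak in all 6 libraries (16, 21, 17 and 11 in HOXA to HOXD), out of 92505 such regions in the genome, or 56.5% of the HOX regions and 37.3% of all. They are called shared regions below.

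Genes in a HOX cluster are ordered as they are used along the body, from paralog groups 1 to 3 at the anterior end to groups 9 to 13 at the posterior end. In cells that do not use a HOX gene, Polycomb proteins usually keep its chromatin compact, and in cells that use it the chromatin is open to the transcription machinery. Adult mesenchymal cells, including those of bone, are known to keep a HOX pattern from the place in the body where they arose. HOX proteins often bind DNA together with the TALE homeodomain proteins of the PBX, MEIS and PKNOX families.

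The study measured accessibility by ATAC-seq, in which a transposase inserts sequencing adapters where DNA is free of tightly packed nucleosomes. There were 3 libraries from wild-type (WT) U2OS cells and 3 from U2OS cells in which CRAMP1 was knocked out (CRAMP1-KO), a regulator of the genes of linker histone H1. Neither group has a treatment in the labels. They also leave out whether replicates came from separate cultures and whether the knockout line was 1 clone, so p-values cover only the spread among these libraries, and this spread may be technical. The comparison asks how accessibility differs without CRAMP1.

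The lists held 132686 to 198875 peaks per WT library and 133756 to 157997 per CRAMP1-KO library, on chromosomes 1 to 22 and X. WT replicate 1 stood apart, with the most peaks, a relative depth index above the 17.4 to 24.3 of the other libraries and the lowest median fold enrichment (4.25, against 5.96 to 6.26). The read totals are unknown, so no counting intervals are given. Peaks cannot check the knockout of CRAMP1. The label of the cell line was compared with 6 genes: the starts of RUNX2, COL1A1 and COL1A2, genes of bone and connective tissue, had a peak within 1 kb in all 6 libraries, those of PTPRC (leukocytes) and ALB (hepatocytes) had none, and that of MYOD1 (skeletal muscle) had one in 3 WT libraries and 1 CRAMP1-KO library.

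Openness at the gene starts differed between the clusters and within them. A peak lay within 1 kb of the start in all 6 libraries at 23 of the 38 genes, in 1 to 5 libraries at 5 genes and in 0 libraries at 10 genes. The promoter sequences of 4 of these genes show both situations. HOXA13, which patterns the digits and the genital tract, and HOXD1, the anterior gene of HOXD, had peaks over their starts in all 6 libraries. HOXD4, a gene of the hindbrain and neck vertebrae, and HOXA6 had none within 1 kb. Each sequence below holds the 250 bases before the start, 5′ to 3′ on the strand of the gene, from RefSeq (build GRCh38.p14, not the build of the peaks). Capitals mark the dinucleotide CG, the target of DNA methylation, which reads the same on both strands. HOXA13 is at chr7:27200092-27200341 on the minus strand, HOXD1 at chr2:176188418-176188667 on the plus strand, HOXA6 at chr7:27147775-27148024 on the minus strand and HOXD4 at chr2:176151300-176151549 on the plus strand.
HOXA13: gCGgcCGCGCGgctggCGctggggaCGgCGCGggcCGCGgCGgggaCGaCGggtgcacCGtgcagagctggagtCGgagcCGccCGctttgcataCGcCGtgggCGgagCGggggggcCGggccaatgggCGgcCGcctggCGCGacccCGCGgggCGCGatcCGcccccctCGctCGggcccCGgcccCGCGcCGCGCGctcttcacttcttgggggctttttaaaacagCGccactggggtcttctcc
HOXD1: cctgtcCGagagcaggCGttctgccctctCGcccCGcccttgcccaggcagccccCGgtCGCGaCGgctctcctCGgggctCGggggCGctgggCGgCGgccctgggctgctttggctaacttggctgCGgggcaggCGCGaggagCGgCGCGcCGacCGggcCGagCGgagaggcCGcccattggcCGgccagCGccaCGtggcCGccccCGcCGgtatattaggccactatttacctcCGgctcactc
HOXA6: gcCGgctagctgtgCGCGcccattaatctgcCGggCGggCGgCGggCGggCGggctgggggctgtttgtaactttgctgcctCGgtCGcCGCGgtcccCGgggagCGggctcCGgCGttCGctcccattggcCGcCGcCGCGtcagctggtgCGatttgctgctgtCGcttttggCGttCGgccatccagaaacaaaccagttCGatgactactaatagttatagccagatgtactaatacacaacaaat
HOXD4: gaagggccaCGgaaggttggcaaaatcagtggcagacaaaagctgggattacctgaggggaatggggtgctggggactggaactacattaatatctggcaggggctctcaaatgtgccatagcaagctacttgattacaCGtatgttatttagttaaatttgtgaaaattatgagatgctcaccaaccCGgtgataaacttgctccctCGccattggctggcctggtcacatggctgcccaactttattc

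HOXA13 held 40 CG in this stretch, a count reached by 2.16% of the 35116 promoters in the RefSeq table, and HOXD1 held 31, reached by 10.9%. HOXA6, with no peak, held 27, reached by 17.7%, and HOXD4 held 4, reached by 70.7%. A RefSeq promoter was found for 20 of the 38 genes, and 15 with 1 agreed start were counted. The median was 28 CG (11 to 40) at the 7 of these genes with a peak in all libraries, 16 (7 to 23) at the 3 with a peak in some libraries and 21 (4 to 27) at the 5 without one, against 11 over the whole table. Closed starts such as those of HOXA6, HOXD10 (23 CG) and HOXD13 (21 CG) therefore overlapped in CG count with open ones such as HOXA9 (20 CG) and HOXA11 (11 CG).

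By cluster, a peak was at the start in all 6 libraries at 7 of 10 HOXA genes, 6 of 10 HOXB genes, 7 of 9 HOXC genes and 3 of 9 HOXD genes. By position, this held for 2 of 7 anterior genes (HOXB2 and HOXD1), 10 of 15 central genes of groups 4 to 8 and 11 of 16 posterior genes. Of the other anterior genes, HOXA3, HOXB3 and HOXD3 have a start that differs from that of a current gene table, and HOXA2 and HOXB1 do not. The low anterior share therefore depends on the starts used. The open posterior genes were HOXA9, HOXA10, HOXA11, HOXA13, HOXB9, HOXB13, HOXC9, HOXC10, HOXC11, HOXC13 and HOXD9. HOXA9 and HOXA10 are known from blood formation and leukaemia, HOXA11 from the forearm, HOXB13 from the prostate and HOXC13 from hair and nail. The open central genes were HOXA4, HOXA5, HOXA7, HOXB5, HOXB6, HOXB7, HOXC4, HOXC5, HOXC8 and HOXD8. The 10 starts without a peak were HOXA2, HOXA3, HOXA6, HOXB3, HOXB8, HOXC6, HOXC12, HOXD4, HOXD10 and HOXD13. HOXA2 specifies the second pharyngeal arch, and HOXD13 is the digit gene at the posterior end of its cluster. In between were HOXB4, with a peak in 5 libraries, HOXD11, with one in 4, and HOXB1, HOXD3 and HOXD12, each with one in 1 WT library. Within 500 bp of the start, the same count of 23 genes had a peak in all 6 libraries, and at 16 genes the peak covered the start base itself in all 6. Of the 32 genes whose start was spaced as in a current gene table, 21 had a peak in all 6 libraries, 4 in some and 7 in none. HOXA3, HOXB3, HOXC4, HOXC5, HOXC6 and HOXD3 are placed by the start used here. For HOXC6 and HOXA3 the lack of a peak holds only for that start. By spacing, the HOXC6 start of the gene table lies within 1 kb of a shared region. Some of the 7 starts that it lists for HOXA3 fall in shared regions.

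**Figure D1:**
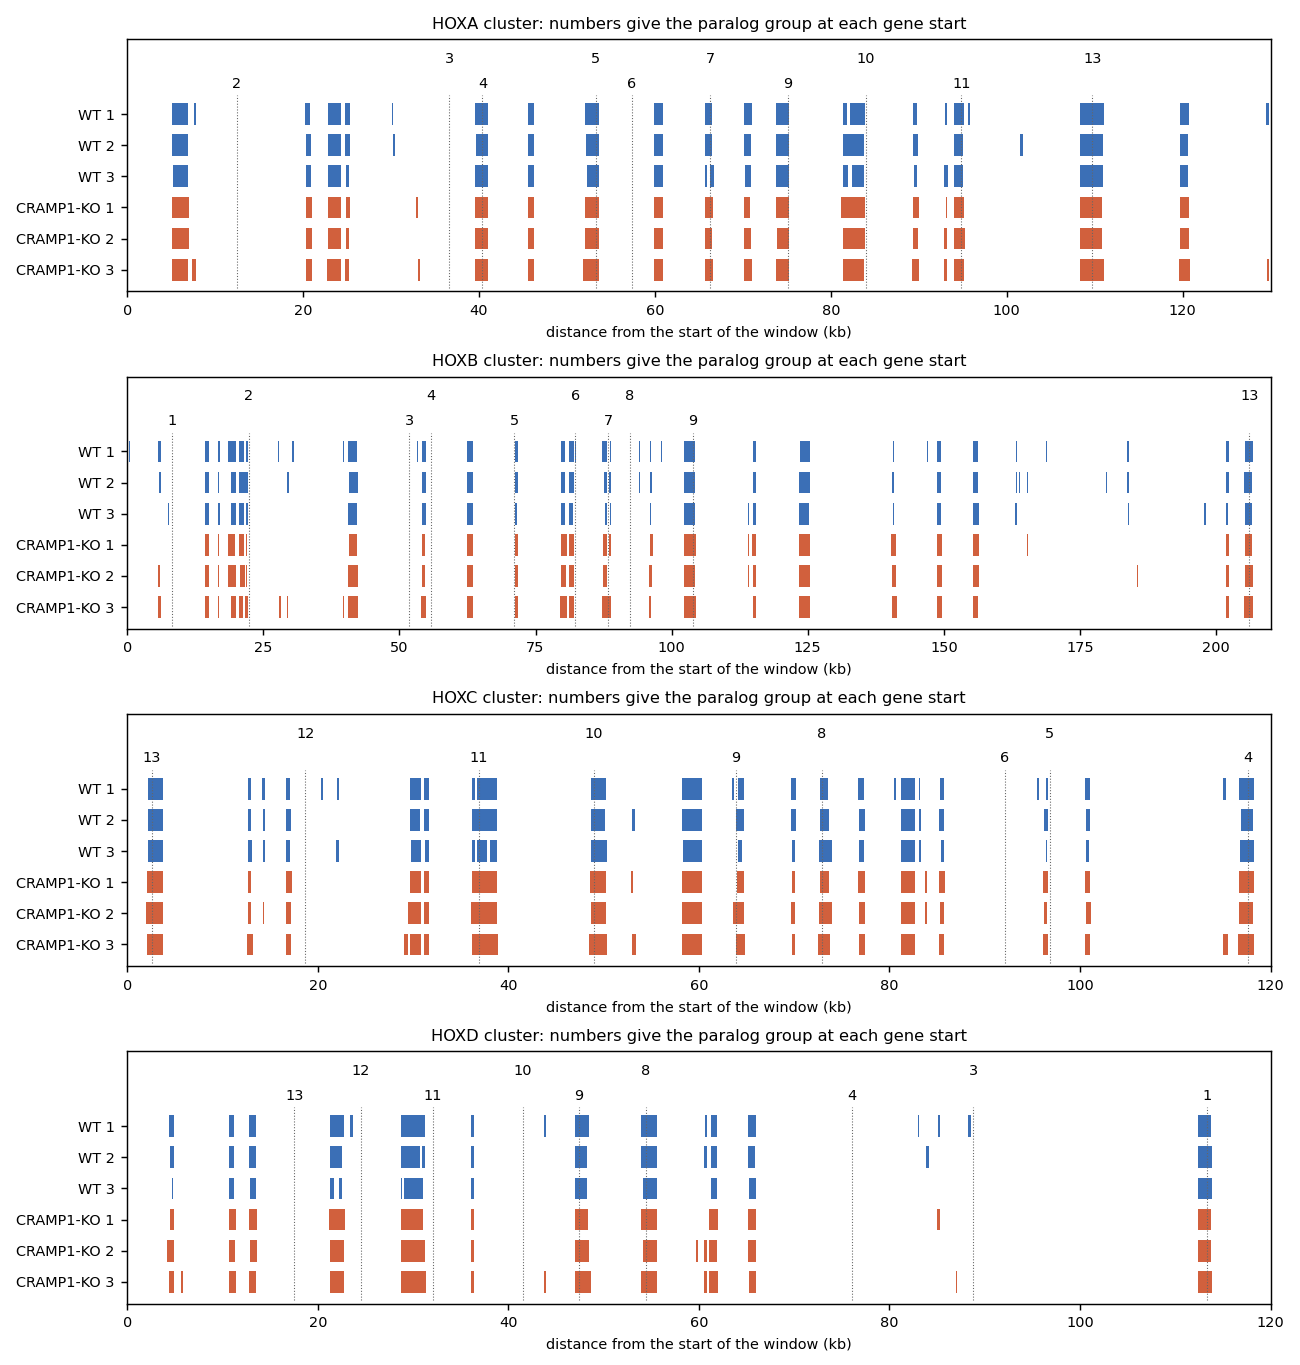
Peaks of each library (rows; blue WT, orange CRAMP1-KO) along the 4 HOX clusters, as distance in kb from the start of the window; dotted lines mark gene starts with their paralog group. Most peaks stand in the same place in all 6 libraries. The long stretches around the starts used for HOXD4 and HOXD3, HOXA2, HOXB3 and HOXC6 are empty or nearly empty in all of them.

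Peaks common to all 6 libraries covered 13.5% of the HOXA window, 7.50% of HOXB, 12.2% of HOXC and 8.10% of HOXD, and peaks of any library covered from 13.5% (HOXD) to 19.8% (HOXC). The longest run without a peak in any library was 23.8 kb in HOXD, from 177028535 to 177052338, which holds the HOXD3 start used here and ends at the HOXD1 peak. A second run of 16.9 kb in HOXD, from 177006045 to 177022981, holds HOXD4, and shorter ones of 7.57 and 7.35 kb hold HOXD13 and HOXD10. In HOXA the longest run was 12.4 kb around HOXA2 (27137808 to 27150235). In HOXB it was 14.9 kb between HOXB9 and HOXB13 (46725354 to 46740231), with 10.8 kb around the HOXB3 start used. In HOXC it was 13.9 kb before the HOXC4 start used (54431108 to 54445036), with 9.66 kb around the HOXC6 start used. Starts with a peak in all libraries often stood in a row, as from HOXA7 to HOXA13 and from HOXC11 to HOXC8. The HOXA6 start, without a peak, lay between those of HOXA5 and HOXA7, and its surroundings still had a mean of 16.7% of bases under peaks.

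Each gene was given the stretch nearest to its start, up to 5 kb on either side. The HOXD11 stretch had the highest mean share of bases under peaks, 32.4%, followed by HOXA13 (26.3%), HOXC11 (25.4%) and HOXA10 (25.3%). HOXC6, at the start used, and HOXD4 had 0 covered bases in every library. HOXB3, HOXD10, HOXA2 and HOXA3 had mean shares of 0.495%, 0.692%, 0.885% and 1.07%. In the HOXC11 stretch the WT libraries had 2424, 2608 and 2093 covered bases and the CRAMP1-KO libraries 2665, 2713 and 2755. Those of HOXA10 had 2194, 2404 and 2019 in WT against 2701, 2501 and 2454 in CRAMP1-KO. In bases, then, both stretches were covered more in every CRAMP1-KO library, as were those of HOXC13 and HOXD13. Per 1000000 peak bases of the library the genotypes overlapped at all of these genes. Per 1000000 peak bases, HOXA5 was the 1 stretch of 38 without overlap, at a mean of 18.0 in WT and 19.4 in CRAMP1-KO. The share of such stretches over all genes was not computed, so these counts are descriptions only.

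**Figure D2:**
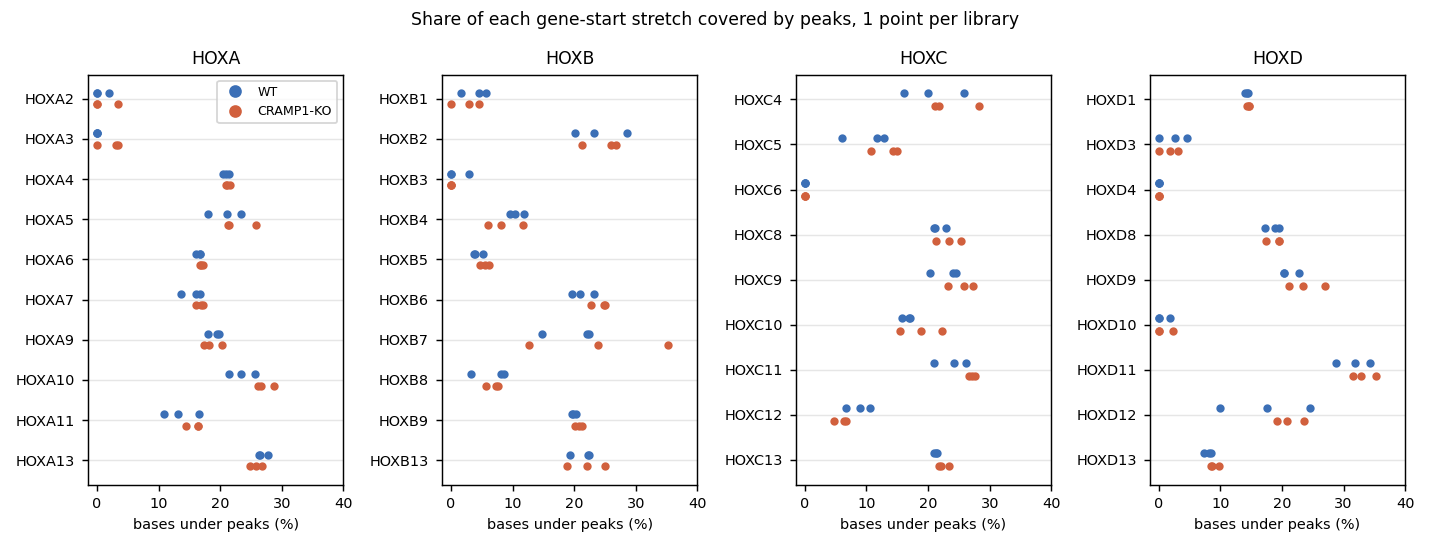
Share of bases under peaks (percent, x axis) in the stretch of each HOX gene, with 1 point per library (blue WT, orange CRAMP1-KO). HOXD11 has the highest mean share, 32.4%, and HOXC6 (at the start used) and HOXD4 stand at 0 in all 6 libraries.

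Shared HOX regions were wide for the genome and high in summit pileup, but not in fold enrichment. Their median width per library was 866, 859 and 779 bp in WT against 955, 967 and 955 bp in CRAMP1-KO. Over all shared regions it was 598, 590, 506, 609, 586 and 656 bp in the same order. The median pileup at the summit, the number of fragments stacked there as solved from the deposited values, was 179, 151 and 92 in WT against 108, 110 and 177 in CRAMP1-KO. Over all shared regions it was 97, 87, 53, 61, 62 and 96. Against all shared regions the median HOX region stood at percentile 78.5 by width and 72.2 by pileup. With fold enrichment in place of pileup, the cluster medians lay near or below the median shared region of the library. On the log2 scale they were -0.06 in WT and -0.11 in CRAMP1-KO at HOXA and -0.08 and -0.16 at HOXB. At HOXC they were -0.44 and -0.52, and at HOXD 0.02 and -0.08. The 26 shared regions within 1 kb of a HOX start used here were wider (median 1440 bp) than the 39 others (720 bp), while their median pileups were 134 and 139. With the starts of the gene table for HOXA3 and HOXC4 to HOXC6, some regions would move between these sets. These values are descriptions without a test, since regions of 1 cluster are not replicates.

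The widest shared region of HOXA covered the HOXA13 start, from 27238285 to 27241051, with widths of 2767, 2632 and 2647 bp in WT against 2587, 2482 and 2679 bp in CRAMP1-KO. It also had the highest mean pileup of HOXA, 254.5. In HOXC the widest covered HOXC11, a limb and kidney gene, at 54366138 to 54368916, with 2424, 2608 and 2093 bp in WT against 2665, 2713 and 2755 bp in CRAMP1-KO. The widest of HOXD lay 763 bp from the HOXD11 start, at 176968688 to 176971321, with a mean width of 2410 bp, and that of HOXB covered HOXB9 at 46702306 to 46704427, with a mean of 2032 bp. In HOXB, HOXC and HOXD the highest pileup lay away from the starts used here, between HOXB4 and HOXB5 (46662403 to 46663566), between HOXC8 and HOXC6 (54411187 to 54412706) and between HOXD8 and HOXD4 (177005204 to 177006044). For the HOXC region this holds only for the starts used. The GRCh38.p14 gene table starts HOXC4, HOXC5 and HOXC6 elsewhere, 37.0, 16.1 and 11.4 kb from those used. By spacing, these table starts fall at the same place, within 1 kb of this HOXC region. The HOXB4 to HOXB5 region had pileups of 507, 521 and 325 in WT against 332, 372 and 479 in CRAMP1-KO, or 4.99 to 6.13 times the median shared region of the library. The HOXC8 to HOXC6 region had 366, 394 and 232 against 240, 233 and 354, and the HOXD8 to HOXD4 region 373, 341 and 219 against 213, 236 and 367. Raw pileups follow the depth of a library, so the differences below were taken relative to its median shared region. Limma called none of these leading regions different in pileup or width (adjusted p from 0.265 to 0.868).

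Summit pileup at the HOX clusters differed little between genotypes. Limma, fitted on all 92505 shared regions, called 1 of the 65 HOX regions higher in CRAMP1-KO and 4 lower, or 7.69% in either direction. Over all shared regions 9.36% were called higher and 15.5% lower, 24.9% in all. Of the HOX regions, 59 (90.8%) lay within 0.25 of 0 on the log2 scale, against 58.8% of all shared regions. The sets were not matched for pileup (median of region means 138.5 in HOX against 76 over all). The contrast may therefore not be particular to HOX. The median log2 difference, CRAMP1-KO minus WT, was -0.04 in HOX and -0.07 over all (0.02 in HOX and -0.01 over all after quantile normalization), and the HOX differences reached from -0.53 to 0.58. The split of the genome-wide calls moved with the scaling: 37.6% of calls were higher here, 50.2% when centred on the background, 50.9% after quantile normalization and 57.9% by fold enrichment. In bulk libraries, fewer cells with an open site and less opening per cell cannot be told apart.

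**Figure D3:**
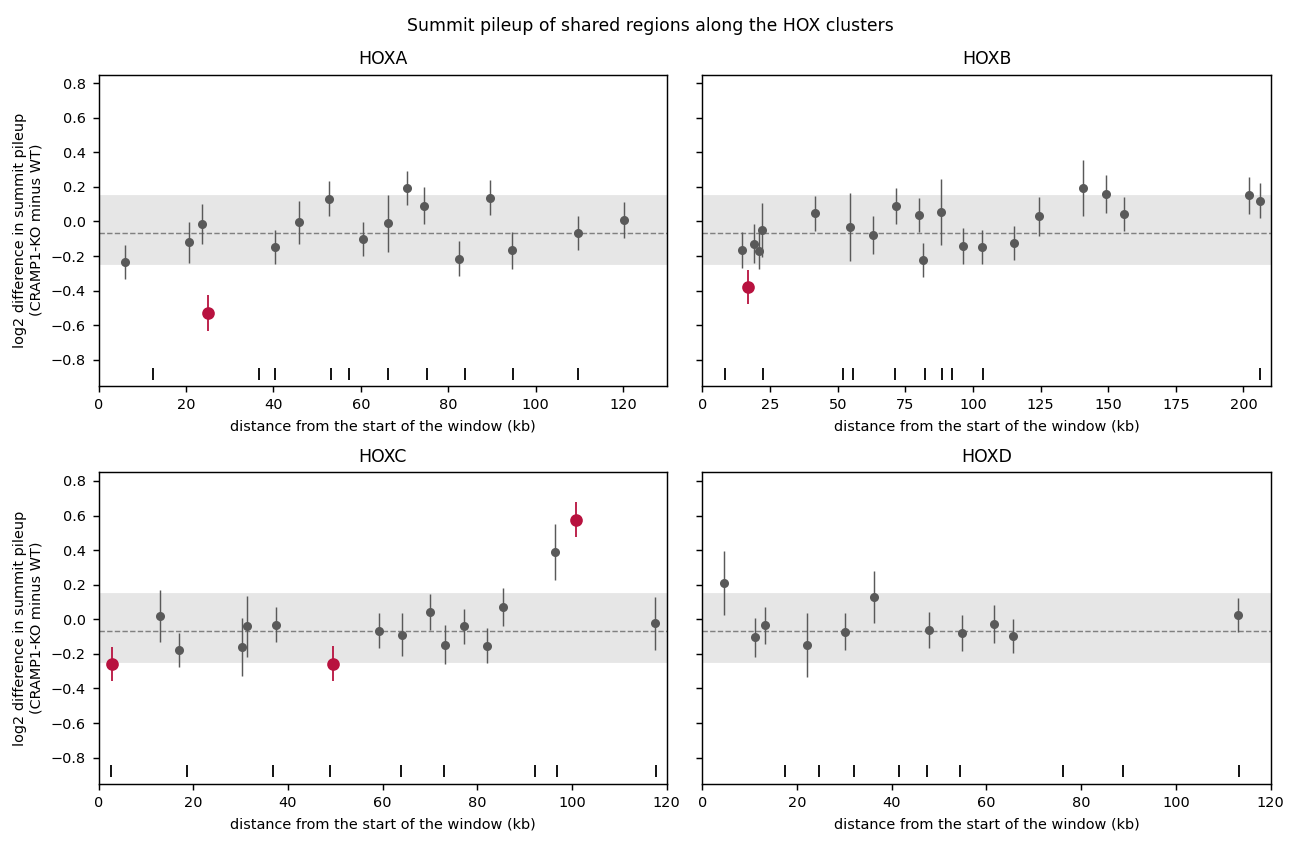
Log2 difference in summit pileup (CRAMP1-KO minus WT, bars: SE of limma) of the shared regions along each cluster, as distance in kb from the start of the window; red points were called by limma, ticks mark gene starts, the dashed line and grey band are the median and the middle quartiles of all shared regions. The 5 called regions stand at -0.53 in HOXA, -0.38 in HOXB and -0.26, -0.26 and 0.58 in HOXC, and no HOXD region was called.

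The region that rose lay between the starts of HOXC5 and HOXC4, at 54430539 to 54431107. Its pileup was 205, 214 and 136 in WT against 214, 240 and 312 in CRAMP1-KO. Relative to the median shared region it was 2.11, 2.46 and 2.57 in WT against 3.51, 3.87 and 3.25 in CRAMP1-KO, so every CRAMP1-KO library was above every WT library. The log2 difference was 0.58 (SE 0.10, limma adjusted p = 1.27e-05), and by fold enrichment in place of pileup it was 0.25 and did not pass (limma adjusted p = 0.149). The neighbouring region beside the HOXC5 start, at 54426092 to 54426639, had a log2 difference of 0.39 and did not pass (limma adjusted p = 0.0656). Its relative pileups were 0.598, 0.655 and 0.736 in WT against 1.16, 0.694 and 0.802 in CRAMP1-KO, and the genotypes overlapped.

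The largest fall lay between the starts used for HOXA2 and HOXA3, a gene of the third pharyngeal arch and the thymus. It was 11308 bp from the HOXA3 start used, and by spacing another of the 7 HOXA3 starts in the gene table lies nearer. At 27154805 to 27155331, the pileup was 197, 177 and 98 in WT against 92, 79 and 127 in CRAMP1-KO. The relative values were 2.03, 2.03 and 1.85 in WT against 1.51, 1.27 and 1.32 in CRAMP1-KO, without overlap, and the log2 difference was -0.53 (SE 0.11, limma adjusted p = 0.000126). A region between HOXB1 and HOXB2, both genes of the hindbrain, fell as well, at 46616667 to 46616994. Its pileup was 237, 210 and 143 in WT against 128, 116 and 177 in CRAMP1-KO, or 2.44, 2.41 and 2.70 against 2.10, 1.87 and 1.84 relative to the median (log2 difference -0.38, SE 0.10, limma adjusted p = 0.00325).

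Both remaining calls were at gene starts of HOXC and close to the threshold. The region over the HOXC13 start, 54332005 to 54333778, had 350, 344 and 208 in WT against 202, 202 and 292 in CRAMP1-KO, or 3.61, 3.95 and 3.92 against 3.31, 3.26 and 3.04 relative to the median (log2 difference -0.26, SE 0.10, limma adjusted p = 0.0470). The region over the start of HOXC10, 54378490 to 54380377, had 223, 193 and 111 in WT against 108, 121 and 174 in CRAMP1-KO. Relative to the median, WT was at 2.09 or more and CRAMP1-KO at 1.77, 1.95 and 1.81 (log2 difference -0.26, SE 0.10, limma adjusted p = 0.0499). Of 11 other ways to run the fit, the HOXC5 to HOXC4 and HOXA2 to HOXA3 regions kept their call in 10, the HOXB1 to HOXB2 region in 9 and the HOXC13 and HOXC10 starts in 2 each. With WT replicate 1 left out, the HOXC10 start lost its call (limma adjusted p = 0.131), the other 4 regions kept theirs and 1 further region was called lower. The 4 lower calls were 2 when WT replicate 2 or 3 or CRAMP1-KO replicate 1 or 3 was left out, and the 1 higher call became 2 for WT replicate 3 or CRAMP1-KO replicate 2. By fold enrichment in place of pileup limma called 0 HOX regions, and 1 higher and 1 lower had an unadjusted p under 0.05.

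**Figure D4:**
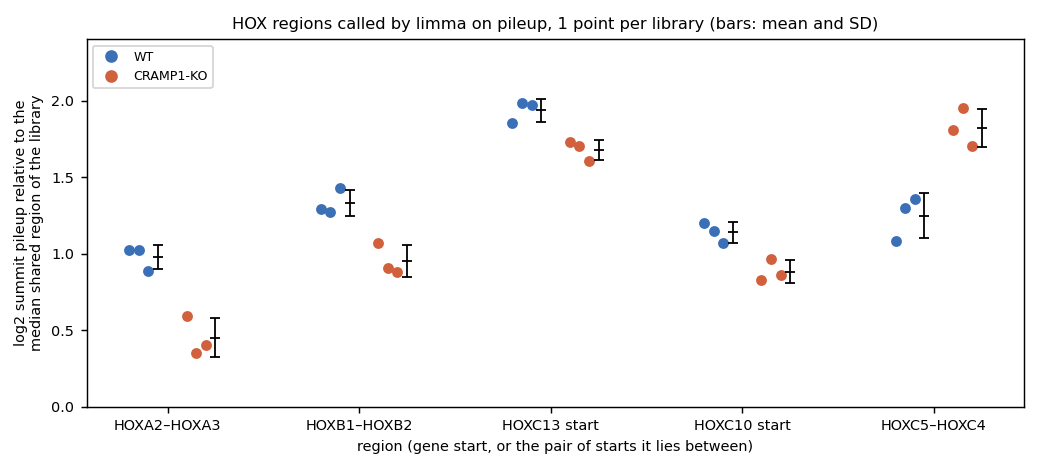
Log2 summit pileup relative to the median shared region of the library (y axis) of the 5 HOX regions called by limma, with 1 point per library (blue WT, orange CRAMP1-KO), mean and SD beside them. The genotypes do not overlap at any of the 5 regions, and only the HOXC5 to HOXC4 region is higher in CRAMP1-KO.

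Groups of libraries also failed to overlap without a call. The relative pileup of all CRAMP1-KO libraries was above that of all WT libraries at 4 of the 65 HOX regions (14.4% of all shared regions) and below it at 9 (23.7%). Among those without a call were the HOXB6 start (log2 difference -0.22, limma adjusted p = 0.0905), the region before HOXA2 (-0.24, limma adjusted p = 0.0674) and a region between HOXA7 and HOXA9 (0.19, limma adjusted p = 0.146). By position, the median log2 difference was -0.13 over the 11 anterior, -0.03 over the 24 central and -0.05 over the 30 posterior shared regions. After quantile normalization these medians were -0.09, 0.04 and 0.02, so the direction over central and posterior regions depended on the scaling. By fold enrichment they were -0.04, -0.05 and -0.07, so the anterior median was no longer the lowest. Calls numbered 2 lower among the anterior, 1 higher among the central and 2 lower among the posterior regions.

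For width, limma called 0 of the 65 HOX regions wider or narrower, with log2 differences from -0.47 to 1.49. Over all shared regions 0.0281% were called wider and 0.0141% narrower. At an unadjusted p under 0.05 there were 6 HOX regions (9.23%, against 11.9% of all), 5 wider and 1 narrower, the last over the HOXA13 start (log2 difference -0.19, limma adjusted p = 0.409). The genotypes did not overlap in relative width at 4 HOX regions that were wider in CRAMP1-KO (7.54% of all shared regions) and 10 that were narrower (11.3%). These splits depend on centring on the library median: without it, 10 HOX regions were wider and 0 narrower at an unadjusted p under 0.05, and the median log2 difference of the HOX regions was 0.12 in place of -0.01. In simulated data with 200 of 92505 regions changed, the fit on width found 7% of log2 changes of 1, so 0 calls do not show that widths were alike. The region with the lowest adjusted p, singled out after its values were seen, lay between HOXB9 and HOXB13 at 46740232 to 46741311, with 326, 333 and 177 bp in WT against 901, 697 and 889 bp in CRAMP1-KO (log2 difference 1.49, SE 0.21, limma adjusted p = 0.0775). Its pileup relative to the median overlapped, at 0.711, 0.575 and 0.660 in WT against 0.607, 0.823 and 0.813 in CRAMP1-KO.

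Broad HOX regions were cut into more than 1 peak more often in WT. The number of the 65 shared regions with more than 1 peak was 4, 2 and 6 in WT against 1, 0 and 0 in CRAMP1-KO. The means were 4 ± 2 and 0.333 ± 0.577 (SD, n = 3, two-sided exact permutation p = 0.1, the smallest that 3 libraries against 3 allow). This test was not among those planned. The HOXC11 region held 2, 1 and 3 peaks in the WT libraries and 1 in each CRAMP1-KO library, the HOXA10 region 2, 1 and 2 against 1 each, and the region near HOXD11 1, 2 and 2 against 1 each. Over all shared regions the share cut in this way was 5.53%, 3.35% and 5.03% in WT against 2.15%, 2.96% and 2.11% in CRAMP1-KO, so the direction was that of the whole genome.

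Peak numbers overlapped between genotypes in HOXA, HOXC and HOXD and separated in HOXB. In HOXB the libraries had 36, 30 and 28 peaks in WT against 24, 24 and 26 in CRAMP1-KO, or 1.97 ± 0.150 and 1.72 ± 0.0744 per 10000 peaks of the library (SD, n = 3). The libraries did not overlap (two-sided exact permutation p = 0.1, the smallest possible, and 1 after adjustment over the 12 cluster tests). Among peaks with a −log10 q of at least 5 the HOXB difference fell from -0.245 to -0.0845 per 10000 (exact permutation p = 0.5). Since a shared region has a peak in every library, numbers can differ only at regions not shared or cut into several peaks. At HOXB regions not shared there were 14, 8 and 6 peaks in WT against 2, 3 and 5 in CRAMP1-KO. Over the 4 clusters, 26 of the 50 regions not shared had a peak in 1 library, 14 of them in WT replicate 1, and the median pileup of the 50 was 26.5. Without WT replicate 1, the HOXB difference was -0.323 per 10000.

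HOXA peaks per 10000 numbered 1.24 ± 0.170 in WT against 1.28 ± 0.0632 in CRAMP1-KO (exact permutation p = 0.8), HOXC 1.43 ± 0.199 and 1.35 ± 0.0783 (exact permutation p = 0.8) and HOXD 0.919 ± 0.0626 and 0.927 ± 0.0268 (SD, n = 3; exact permutation p = 0.9). Covered bases per 1000000 peak bases were 250 ± 26.4 and 258 ± 12.9 in HOXA, 257 ± 22.4 and 256 ± 9.05 in HOXB, 220 ± 26.6 and 234 ± 12.5 in HOXC and 146 ± 5.00 and 159 ± 8.50 in HOXD (SD, n = 3), with exact permutation p of 0.7, 1, 0.5 and 0.2. The genotypes overlapped in each of these 7 comparisons.

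**Figure D5:**
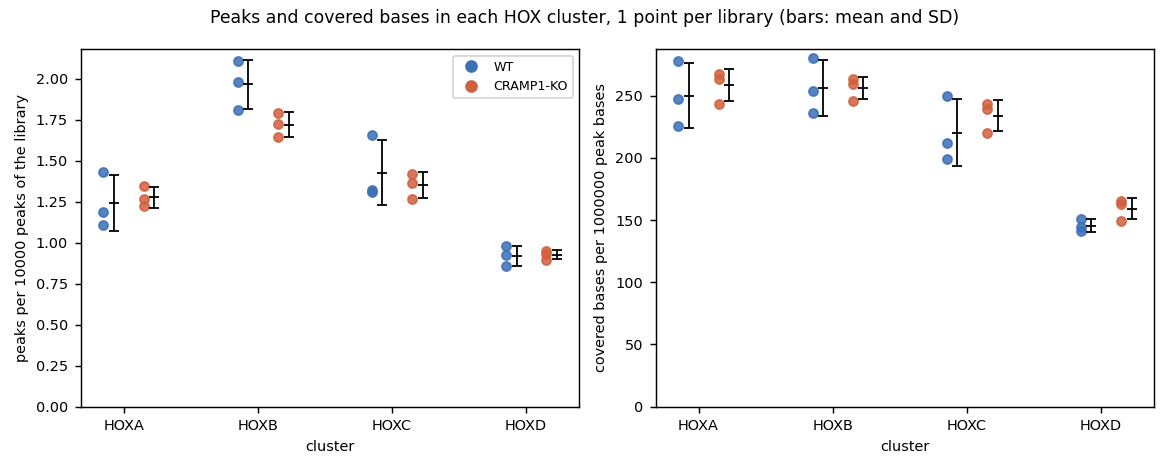
Peaks per 10000 peaks of the library (left) and covered bases per 1000000 peak bases (right) in each HOX cluster, with 1 point per library (blue WT, orange CRAMP1-KO), mean and SD beside them. The genotypes are apart in peak number at HOXB, at 1.97 ± 0.150 and 1.72 ± 0.0744, and overlap in covered bases in every cluster.

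As whole clusters the pileups did not separate either. The median log2 pileup of the shared regions, relative to the median of the library, was 0.88 ± 0.02 in WT and 0.93 ± 0.11 in CRAMP1-KO at HOXA, 0.95 ± 0.06 and 0.96 ± 0.03 at HOXB, 0.88 ± 0.11 and 0.87 ± 0.05 at HOXC and 0.73 ± 0.07 and 0.66 ± 0.08 at HOXD (SD, n = 3). The exact permutation p was 0.6, 0.8, 1 and 0.4. Shared regions within 5 Mb on either side of the windows had median log2 differences of -0.05 (371 regions, HOXA), -0.07 (678, HOXB), -0.13 (645, HOXC) and -0.07 (269, HOXD).

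No HOX region was present in all CRAMP1-KO libraries and absent from WT, and 3 of the 115 (2.61%) were present in all WT libraries and absent from CRAMP1-KO. Over all regions the shares were 0.767% and 1.14%. The 3 WT-only regions were small. One lay between HOXC8 and HOXC6 at 54413086 to 54413339, with pileups of 76, 67 and 47 and widths of 148, 205 and 223 bp. The others lay between HOXB9 and HOXB13, at 46763147 to 46763496 (pileups 30, 18 and 12) and at 46783712 to 46783966 (21, 18 and 10). Near the HOXC one, at 54413696 to 54413965, CRAMP1-KO replicates 1 and 2 had a peak, with pileups of 54 and 47, and WT had none. When WT replicate 3 was left out, 5 regions met the rule for WT-only, and when CRAMP1-KO replicate 2 or 3 was left out, 1 met that for CRAMP1-KO-only.

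The TALE partners of HOX proteins analysed here were open at their starts. All 8 genes (PBX2, PBX3, PBX4, MEIS1, MEIS2, MEIS3, PKNOX1 and PKNOX2) had a shared region within 1 kb. Limma called 2 of them lower in CRAMP1-KO and 0 higher, where 15.5% of all shared regions were called lower and 9.36% higher. PBX3 had pileups of 359, 357 and 209 in WT against 173, 216 and 279 in CRAMP1-KO (log2 difference -0.35, limma adjusted p = 0.00685). PKNOX1 had 521, 502 and 304 in WT against 239, 306 and 402 in CRAMP1-KO (log2 difference -0.38, limma adjusted p = 0.00660). These calls were lost centred on the background (limma adjusted p of 0.213 for PBX3 and 0.201 for PKNOX1), by fold enrichment and without CRAMP1-KO replicate 1, with 0 calls in each, and 1 remained without WT replicate 2, that of PKNOX1. In all of these settings both regions had negative log2 differences. With all libraries, the regions at MEIS1, MEIS2, MEIS3, PBX2, PBX4 and PKNOX2 did not pass (log2 differences from -0.23 to 0.01). Without WT replicate 1, the MEIS1 region was also called lower (log2 difference -0.28, limma adjusted p = 0.0361).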

How the data were processed

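ATAC-seq peaks of 3 WT and 3 CRAMP1-KO U2OS libraries were analysed. Per the labels' protocols, each library came from 50000 cells, tagmented for 30 minutes and amplified with 7 PCR cycles. Tools named in the submitters' processing notes are MACS3, BWA 0.7.17-r1188, cutadapt 3.4 and bcl2fastq 2.20.0, with the hg19 build. For MACS3 settings, duplicates and any transposase shift, the sources used here give nothing. The authors deposited 1 peak list per library, called without pooling. Each peak has a score, a fold enrichment and −log10 p and q values, which are the authors' own and hold no read counts. Fold enrichment was taken as the ratio of summit pileup to local background, with 1 added to each.

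Pileup and background at each summit were solved from fold enrichment and the Poisson −log10 p. All solved pileups were whole within 0.05. The lowest background, which grows with depth, divided by the lowest peak width gave the relative depth index. Peaks overlapping by at least 1 bp were merged into regions. Where a region held several peaks, the highest pileup and the summed width were used. Log2 pileup and width of the 92505 shared regions were centred on the library median and tested with limma 3.58.1 (R 4.3.3, trend, two-sided, Benjamini-Hochberg over all shared regions, threshold 0.05). Values per cluster were compared by two-sided exact permutation over 20 label assignments. On simulated data with 200 of 92505 regions changed, far fewer than the real pileup fit called, the pileup fit found 5% of log2 changes of 0.5 and 63% of changes of 1, the width fit 0% and 7%, and both 0% of unchanged regions.

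Gene starts in hg19 were written by hand and checked by their spacing in a GRCh38.p14 gene table, where 32 of 38 lay within 0.327 kb. The table lists 7 starts for HOXA3, 2 for HOXD3 and 1 each for HOXB3, HOXC4, HOXC5 and HOXC6. For these 6 genes its start differed from the one used, for HOXC4 by 37.0 kb, so values at and distances to their starts hold only for the start used. No hg19 sequence or annotation was used, so exons and introns were not assigned. Named regions were those called by a fit, those of 1 genotype and the widest and highest of each cluster, and any other region named was chosen after its values were seen. The values of 1 gene of the list of HOX partners are not reported here. Genes, lists and windows were chosen with earlier results of these data known. Python 3.11.15, numpy 2.4.6, pandas 2.3.3, scipy 1.17.1 and matplotlib 3.10.9 were used. Alternatives were q limits, lists of equal length, other scalings and merging, leaving out each library and a replicate block. Centring on regions within 5 Mb was chosen after seeing the data. The test of regions cut into more than 1 peak was not among those planned.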

Additional observations from a re-analysis of the deposited data

How the results depend on the processing

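Differences below are CRAMP1-KO minus WT. At HOXA the difference in peaks per 10000 was 0.0358 and turned to -0.0681 at a −log10 q of at least 10 and -0.0754 in lists of equal length, and that in covered bases per 1000000 was 8.13 and turned to -8.19 and -3.90. At HOXB covered bases moved from -0.381 to 8.79 and 5.63 at −log10 q of at least 5 and 10. By fold enrichment the median log2 difference of HOXA and HOXB turned from 0.06 and 0.01 to -0.0438 and -0.0848, and that of HOXC turned from -0.01 to 0.00913 centred on the background and to 0.0712 centred on regions within 5 Mb. With each library left out in turn, peaks per 10000 ranged from -0.0320 to 0.131 (HOXA), -0.323 to -0.173 (HOXB), -0.138 to 0.0372 (HOXC) and -0.0248 to 0.0377 (HOXD), covered bases per 1000000 from -4.27 to 22.03 (HOXA) and -10.8 to 11.5 (HOXB), and median log2 pileup from -0.00624 to 0.105 (HOXA), -0.0238 to 0.0365 (HOXB) and -0.0701 to 0.0378 (HOXC). The cause was not tested. With all libraries, the genotypes overlapped in each of these measures except the peaks of HOXB, and by fold enrichment they were apart in the HOXB median (exact permutation p = 0.1).

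HOX regions called higher numbered 1 and became 2 after quantile normalization and 0 by fold enrichment, and 1 to 2 with a library left out. Those called lower numbered 4 and became 1 centred on the background, 2 after quantile normalization, 0 by fold enrichment and 2 to 4 with a library left out. Over the alternatives the HOXC10 and HOXC13 starts had limma adjusted p of 0.0451 to 0.506 and 0.0269 to 0.417, and the HOXB1 to HOXB2, HOXA2 to HOXA3 and HOXC5 to HOXC4 regions 0.00249 to 0.283, 0.000106 to 0.0594 and 1.38e-08 to 0.149, with the same direction throughout. WT-only regions numbered 3 to 5 and CRAMP1-KO-only regions 0 to 1 with a library left out, the 5 when WT replicate 3 was left out and the 1 for CRAMP1-KO replicate 2 or 3. Replicate numbers did not pair the libraries (correlation of deviations 0.06, 0.06 and -0.09 for numbers 1, 2 and 3). With the replicate block, 1 HOX region was higher and 2 lower, and the cluster medians had exact permutation p of 0.5, 1, 1 and 0.25, where 0.25 is the smallest possible.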
